A study of Mus musculus with 21 samples.

Results

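The genes described here are 47 genes of DNA replication and of the passage from G1 to S phase. They were taken by name from the genes on the array, with the brightest probe set (by its mean on the 21 arrays) standing for each gene. All 47 were found among 19937 named genes, and 43 of them were among the 7300 named genes that were bright enough to be tested. The list is one of names, but it was chosen with earlier results of these data known.

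The cells were N202, a breast tumor line from FVB-NeuN mice that carry rat HER-2/neu under the MMTV promoter, transformed to express H2B-GFP. Parental cells that had seen no tissue (P0, 2 arrays) were compared with cells adapted as spheroids to minced brain, bone marrow or lung tissue of C57BL/6 donors in dorsal skinfold chambers on female nude mice. Each passage was 21 days on tissue, so that P1, P2, P3 and P4 stand for 21, 42, 63 and 84 days. Brain passages had 2 arrays each, bone marrow and lung passages 1 array each, cells on breast tissue 1 array at P1, and a second brain adaptation experiment 1 array each at P1 and P2. All adapted cells were selected with G418, sorted on GFP and grown again in vitro before RNA was taken, so each value is from cultured cells and not from the chamber. The second array of each brain passage is labelled a technical replicate, and by the methods it and the second P0 array were repeats that began with cells in culture. The tests therefore measure how cultures of 1 adapted line vary, not how adaptations vary. Donor and host age was not given in the sources used here.

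Before a cell copies its DNA, the origin recognition complex with CDC6 and CDT1 loads the MCM2-7 ring, the later helicase, onto chromatin in G1. Cyclins D and E with their kinases release the E2F factors, whose targets include most genes of replication and of nucleotide supply, and CDC45, MCM10 and the GINS complex then turn the loaded ring into a moving helicase that polymerases follow. RNA of these genes is a common readout of proliferation in tumor cells. These are bulk cultures, in which fewer cells in cycle and less RNA per cell cannot be told apart.

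Values are log2 levels per probe set, and differences are on the log2 scale unless a fold is given. A gene was called higher or lower at an adjusted p (limma, Benjamini-Hochberg over all kept probe sets, unnamed ones included) under 0.05. Of the 21 arrays, 5 had a raised floor and a narrow spread, namely the second arrays of brain P1, P2, P3 and P4 and the array of lung P1. Their 5th percentile was 2.49 to 3.04, against 2.01 to 2.40 on the other 16. Of 10 markers of mammary epithelium, 8 were bright on all arrays, with Krt8 at 12.35 to 13.21 and Epcam at 10.08 to 10.87, while Krt19 was below the filter and Elf3, at 5.73 to 7.46 (median 6.54), passed it through its highest group. Of the neural and glial markers 1 of 11 found (Mbp) reached the filter, and Gfap did not exceed 4.71 on any array. No fibroblast, endothelial or erythroid marker reached it. The mean of the 14 macrophage and leukocyte markers was 4.86 to 4.87 at P0, 5.15 to 5.38 at brain P1 and 5.26 to 5.35 at brain P2, with Cd14 and Cd68 as the only ones above the filter and Ptprc at 4.55 or less. Cd68 measured 6.03 and 5.99 at P0, 8.27 and 7.62 at brain P1, 8.03 and 8.48 at P2, 6.87 or less at P3, and 7.22 and 8.22 at P4, and was called higher than P0 at P1 and P2 (2.25 at P2, limma adjusted p = 0.006) and lower at P3 than at P2. Of 7 lung epithelial markers Sftpd alone reached the filter; it measured 6.02 and 7.98 at P0, 9.09 and 9.33 at brain P1, 9.89 and 9.62 at P2, 5.86 and 6.04 at P3, and 5.64 and 6.56 at P4, was called higher at P2 (2.75, limma adjusted p = 0.015) and fell by 3.80 from P2 to P3 (adjusted p = 0.0027), while Sftpc did not exceed 4.89. Of the mammary markers, Elf3 (-0.86) and Erbb2 (-0.76) were lower and Cldn3 (0.72) higher at P2. Erbb2 measured 10.69 and 10.7 at P0, 9.56 and 9.46 at brain P1, 9.86 and 10.02 at P2, and 9.5 and 9.42 at P3. Cd68 and Erbb2 had thus moved at brain P1 already, and Erbb2 was not lowest at P2. Sftpd was 2.21 above P0 at brain P1 but was not called there, and its P0 arrays lay far apart. The part of these markers in the results below was not tested.

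In the first brain experiment, replication and G1 to S genes were lowest at the second passage, while in the second experiment the lower array was that of P1. At brain P2, 18 of the 43 tested genes were lower than at P0 and 0 were higher, where 8.37% of all tested genes were called lower. The falls ran from 1.73-fold (Rpa2) to 3.56-fold (Tk1), and the median difference over the 43 genes was -0.66 against -0.05 over all tested genes. Both brain P2 arrays lay below both P0 arrays for 35 of the 43 genes, which is 81.4% against 33.5% of all tested genes, and below all of the other 19 arrays for 13 genes, or 30.2% against 7.04%. Several of these genes, Cdc6, Cdc45, Ccne2, Rrm2 and Tk1 among them, stand in a list that the study chose on these same arrays, so the count is not independent evidence of the direction.

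The median difference from P0 on single arrays placed this fall in time. It was -0.11 and -0.12 on the brain P1 arrays, -0.70 and -0.62 on the brain P2 arrays, -0.10 and -0.40 on the P3 arrays and -0.23 and -0.58 on the P4 arrays, while the P0 arrays themselves stood at 0.07 and -0.07. The 8 arrays of bone marrow and lung ran from -0.35 (lung P3) to 0.08 (bone marrow P4), and the breast array was at -0.02. No bone marrow, lung or breast array came within the range of the brain P2 arrays. The number of calls at brain P2 depended on each library. It was 3 without the first P0 array, 7 without the second, 4 without the first brain P2 array and 8 without the second, and 0 without the 5 arrays with the raised floor, where 1 residual degree of freedom was left; the median then stayed between -0.70 and -0.62. Rrm2 and Ccne2 were called in each of the 4 fits with 1 array left out.

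**Figure D1:**
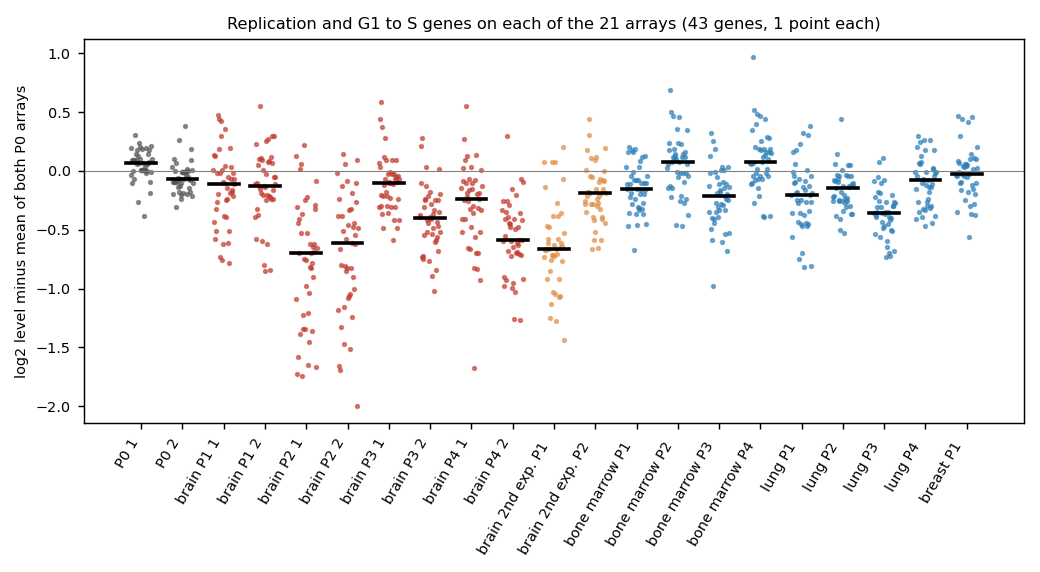
Difference of each of the 43 tested genes (points) from the mean of both P0 arrays (y axis, log2) on each of the 21 arrays (x axis), with the median of the genes as a black bar. Grey is P0, red the first brain experiment, orange the second, and blue the other tissues; the bars of brain P2 (-0.70 and -0.62) and of P1 in the second experiment (-0.66) are the lowest.

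Among the genes that load the helicase, Orc1 and Cdc6 fell at brain P2, and the helicase subunits and the other licensing factors did not pass the test. Orc1, the largest subunit of the origin recognition complex, measured 6.83 and 7.04 on the P0 arrays, 6.36 and 6.36 at brain P1, 5.21 and 5.28 at P2, 7.38 and 6.83 at P3, and 6.85 and 5.96 at P4. The 9 bone marrow, lung and breast arrays ran from 6.71 to 7.40, with a median of 7.10. Brain P2 thus stood below every other array, and the fall from P0 was -1.69 ± 0.29 (SE, limma, n = 2 and 2 arrays, adjusted p = 0.0099), or 3.23-fold. Orc1 is a dim gene here. It passed the filter only through the breast array (7.40), and its means in all other groups, P0 (6.94) included, were below the filter. Both P2 values were close to the median of all probe sets on their arrays (5.05 on each). Cdc6, the ATPase that brings the MCM ring to the origin complex, measured 7.51 and 7.37 at P0, 7.48 and 7.19 at brain P1, 6.23 and 6.38 at P2, 7.21 and 6.90 at P3, and 7.08 and 6.18 at P4. It was 2.19-fold lower at P2 (-1.13 ± 0.28, SE, limma adjusted p = 0.036), and the second P4 array was as low as those of P2. Orc1 lies on chromosome 4, whose 446 tested genes had a median difference of -0.58 at brain P2. How much of the fall of Orc1 is a shift of that chromosome was not tested.

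The MCM2-7 subunits, which form the ring, had differences of -0.16 (Mcm7) to -0.66 (Mcm2) at brain P2, and none passed the test. Mcm5 came nearest. It measured 10.01 and 9.65 at P0, 9.86 and 9.90 at brain P1, 9.14 and 9.21 at P2, 9.78 and 9.58 at P3, 9.64 and 9.47 at P4, and 9.32 to 9.99 (median 9.85) on the 9 arrays of other tissues. The brain P2 arrays were the lowest of all 21, with a difference from P0 of -0.65 ± 0.18 (SE, limma adjusted p = 0.055). Cdt1, the partner of CDC6 in loading, differed by 0.00 ± 0.17 (limma adjusted p = 0.99), and Orc6, another origin complex subunit, by -0.35 ± 0.18 (limma adjusted p = 0.25).

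The promoters of these genes are shown because the genes moved to different degrees and E2F factors are known to bind the promoters of many of them. The table of RefSeq promoters (GRCm38.p6, 250 bases before to 50 after the start of the gene) held 38 of the 47 genes. E2F letters were searched as TTTCCCGC, TTTCGCGC, TTTGCCGC and TTTGGCGC, and the CCAAT box as CCAAT, both on either strand. Below are the 150 bases before the start for 3 genes that fell at brain P2 (Orc1, chr4:108579304-108579453 on the plus strand; Cdc6, chr11:98908001-98908150 on the plus strand; Rrm2, chr12:24708104-24708253 on the plus strand) and 2 that were not called (Mcm6, chr1:128359706-128359855 on the minus strand; Cdk2, chr10:128705052-128705201 on the minus strand), each 5′ to 3′ in the sense of the gene with E2F and CCAAT matches in capitals.
Orc1: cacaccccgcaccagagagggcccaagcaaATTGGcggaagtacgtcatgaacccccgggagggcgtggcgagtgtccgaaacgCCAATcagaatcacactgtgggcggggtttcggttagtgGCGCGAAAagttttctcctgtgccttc
Cdc6: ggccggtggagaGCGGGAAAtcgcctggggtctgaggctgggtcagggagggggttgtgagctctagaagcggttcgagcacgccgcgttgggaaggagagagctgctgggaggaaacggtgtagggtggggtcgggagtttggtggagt
Rrm2: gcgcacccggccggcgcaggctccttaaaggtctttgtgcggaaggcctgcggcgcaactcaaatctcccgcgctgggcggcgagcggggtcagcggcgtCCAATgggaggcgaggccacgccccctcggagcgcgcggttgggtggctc
Mcm6: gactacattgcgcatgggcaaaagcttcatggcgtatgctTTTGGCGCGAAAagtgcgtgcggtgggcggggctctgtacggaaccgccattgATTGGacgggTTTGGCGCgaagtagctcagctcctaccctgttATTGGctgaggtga
Cdk2: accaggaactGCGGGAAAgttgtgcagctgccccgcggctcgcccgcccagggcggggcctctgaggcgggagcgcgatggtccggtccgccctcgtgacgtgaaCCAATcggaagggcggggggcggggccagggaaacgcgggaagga

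An E2F match stood in 15 of the 38 promoters (39.5%), against 2.6% of all 27025 genes in the table and 5.26% of those tested here. It was present in 3 of the 17 matched genes that fell at brain P2 (Orc1, Cdc6 and Pole2) and in 11 of the 20 matched genes that were tested and not called, Mcm3, Mcm5, Mcm6 and Mcm7 among them. In the Mcm6 sequence, 2 of its 3 E2F matches overlap. The Rrm2 window held a CCAAT box and none of these E2F letters. A CCAAT box was found in 57.9% of the 38 promoters and 41.1% of all genes. The CHR letters TTTGAA and TTCGAA, known from genes of mitosis, were found on either strand in 18.4% of the 38 promoters, 21.7% of all genes and 76.2% of the 42 matched genes of a list of mitosis and spindle genes. A match of letters describes the sequence and is not a measured site.

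Of the factors that start the helicase, Mcm10 was 2.05-fold lower at brain P2 (-1.03 ± 0.21, SE, limma adjusted p = 0.016) and Cdc45, the helicase subunit loaded at firing, 1.94-fold lower (-0.96 ± 0.19, limma adjusted p = 0.016). Gins2, of the GINS complex, differed by -0.40 ± 0.23 and was not called. Both called genes had both P2 arrays below both P0 arrays, with Mcm10 at 7.10 and 7.0 against 8.09 and 8.07, and Cdc45 at 7.07 and 6.97 against 8.12 and 7.83.

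At the fork, 7 of the 16 tested genes fell at brain P2. All 16 had differences below 0, as had 54.6% of all tested genes. Fen1, the nuclease that trims Okazaki fragments, measured 8.02 and 8.0 at P0, 7.76 and 7.39 at brain P1, 6.36 and 6.50 at P2, 7.91 and 7.12 at P3, and 7.71 and 6.98 at P4, against 7.19 to 8.09 (median 7.74) on the 9 arrays of other tissues. The fall at P2 was 2.99-fold (-1.58 ± 0.31, SE, limma adjusted p = 0.015), and the P2 arrays lay below every other array. Fen1 lies on chromosome 19, whose tested genes had a median difference of -0.32 at brain P2. Prim1, the catalytic subunit of primase, measured 8.48 and 8.37 at P0, 8.62 and 8.54 at brain P1, 7.06 and 7.52 at P2, 8.36 and 7.84 at P3, and 7.59 and 7.84 at P4, against 8.01 to 8.73 (median 8.29) on other tissues. It was lower by 1.14 at P2 (limma adjusted p = 0.017), and its P4 arrays were also below all those of P0 and of the other tissues.

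The other called genes at the fork were Pola2, a subunit of the polymerase that begins each strand, at -1.04, Pole2, a subunit of the leading strand polymerase, at -1.25, Rfc5, of the clamp loader, at -1.25, and Rpa2 and Rpa3, of the protein that coats single strands, at -0.79 and -1.10. Within each of these complexes, other subunits did not pass the test. Rfc3 differed by -0.19 and Rfc4 by -0.68, Prim2 by -0.30, Pola1 by -0.54, Pole by -0.28 and Rpa1 by -0.57; whether the subunits of a complex differed from each other was not tested. Pcna, the sliding clamp, measured 11.99 and 11.80 at P0, 11.70 and 11.74 at brain P1, 11.37 and 11.51 at P2, 11.68 and 11.65 at P3, 11.79 and 11.64 at P4, and 11.49 to 12.10 (median 11.73) on other tissues. Its difference at P2 was -0.45 ± 0.17 (SE, limma adjusted p = 0.12). Pcna and Rpa3 also have a dimmer probe set each, which differed by -0.20 and -1.15 at P2, but most of the probe sets nearest to these in number (19 and 18 of 20) belong to genes of chromosomes 19 and 1, where neither gene lies.

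Nucleotide supply was the role with the lowest median at brain P2, -1.13 over 5 genes, of which 4 fell. Tk1, the thymidine kinase of the salvage pathway, measured 10.16 and 9.73 at P0, 9.88 and 9.83 at brain P1, 8.28 and 7.95 at P2, 9.53 and 9.43 at P3, and 9.95 and 9.03 at P4, against 9.14 to 9.97 (median 9.56) on the 9 arrays of other tissues. At 3.56-fold, its fall from P0 (-1.83 ± 0.30, SE, limma adjusted p = 0.0076) was the largest among the 43 genes. The array has another, dimmer probe set for Tk1, at 9.53 and 9.05 at P0 and 7.58 and 7.30 at brain P2, a difference of -1.86. Of the 20 probe sets nearest in number, 20 belong to genes of chromosome 11, where Tk1 lies, for the dimmer one, and 15 to genes of chromosome 8 for the brighter one, so the level of the brighter one is uncertain; whether it also reads a near-identical copy was not tested. Rrm2, the subunit of ribonucleotide reductase made in S phase, measured 10.79 and 10.43 at P0, 10.59 and 10.42 at brain P1, 8.87 and 9.14 at P2, 10.89 and 10.64 at P3, and 10.39 and 10.32 at P4, against 10.05 to 10.80 (median 10.59) on other tissues. It fell 3.04-fold at P2 (-1.60 ± 0.20, limma adjusted p = 0.0027), the lowest adjusted p of the 43 genes, and the P3 and P4 arrays were back among those of P0 or close to them. Rrm1, the partner subunit, fell by 0.82 and Dut, which removes dUTP, by 1.13. Tyms, the enzyme of thymidylate synthesis, differed by -0.61 ± 0.20 (limma adjusted p = 0.088).

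The regulators of G1 and S were split. Both E cyclins, which activate CDK2 at the onset of S phase, and the E2F repressor E2f8 fell at brain P2, and Ccnd1, Cdk4, Cdk2 and E2f1 differed by -0.05 to 0.14. Ccne2 measured 7.05 and 7.05 at P0, 6.54 and 6.73 at brain P1, 5.47 and 5.36 at P2, 7.64 and 7.33 at P3, and 7.32 and 6.64 at P4, against 6.66 to 8.02 (median 7.25) on other tissues. It was 3.10-fold lower at P2 (-1.63 ± 0.24, SE, limma adjusted p = 0.005), and it too lies on chromosome 4. Ccne1 was 2.02-fold lower (limma adjusted p = 0.025), with 7.42 and 7.84 at P2 against 8.77 and 8.52 at P0. E2f8 measured 9.30 and 8.69 at P0, 8.73 and 8.87 at brain P1, 7.61 and 7.67 at P2, 9.37 and 8.69 at P3, and 9.09 and 8.07 at P4, against 8.77 to 9.51 (median 9.14) on other tissues; its P2 arrays were the lowest of all, at -1.36 ± 0.36 from P0 (limma adjusted p = 0.044). Ccnd1, the D cyclin that answers growth signals, measured 12.45 and 12.31 at P0 and 12.60 and 12.44 at brain P2, a difference of 0.14 ± 0.21 (limma adjusted p = 0.73). The genes tied to chromatin behind the fork, Uhrf1 and Chaf1b, differed by -0.44 and -0.59 and were not called.

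**Figure D2:**
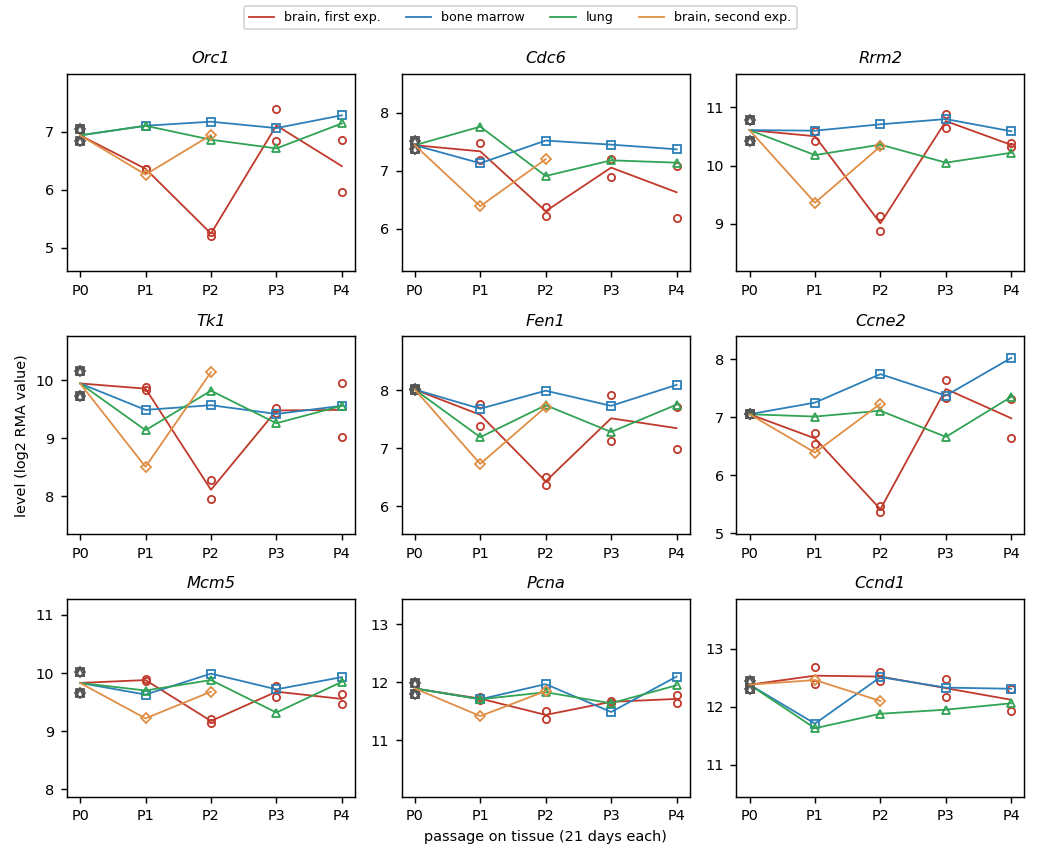
Level (y axis, log2; each panel spans the same number of log2 units) of 9 genes on every array from P0 (grey) to P4 (x axis), with lines through the means of brain in the first (red circles) and second experiment (orange diamonds), bone marrow (blue squares) and lung (green triangles); the breast array is left out. Orc1, Rrm2, Tk1, Fen1 and Ccne2 dip at brain P2, and Ccnd1 varies little there. Pcna is lower there by 0.45 without a call. In the second experiment the dip of Rrm2, Tk1 and Fen1 stands at P1.

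Against brain P1 in place of P0, 5 genes were lower at brain P2 (0.89% of all tested genes were called lower), with a median of -0.58 over the 43 genes. Rrm2 was 2.83-fold lower, Tk1 3.34-fold, Ccne1 2.43-fold, Prim1 2.44-fold and Ccne2 2.32-fold, with limma adjusted p of 0.017 to 0.047. This comparison shares the P2 arrays with that against P0. None of these calls was kept when any 1 of the 4 arrays was left out, and the median was then -0.57 to -0.49.

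At brain P1 itself, 1 of the 43 genes was called lower, Rpa2 (3.62% of all tested genes were called lower, 5.55% in either direction). It measured 7.96 and 7.95 at P0, 7.33 and 7.10 at brain P1, 7.20 and 7.13 at P2, 7.93 and 7.78 at P3, and 7.99 and 7.80 at P4, against 7.71 to 8.42 (median 7.96) on other tissues. The brain P1 and P2 arrays were lower than every other array. The fall from P0 was 1.67-fold at P1 (-0.74 ± 0.17, limma adjusted p = 0.044). Rpa2 lies on chromosome 4, whose genes had a median difference of -0.58 at brain P1, and the call was lost when the median of each chromosome was subtracted and when any 1 of the 4 arrays was left out. Rpa3 (-0.78 ± 0.20) and Pola2 (-0.81 ± 0.25) had larger differences and were not called. With chromosome medians subtracted, 19 genes were called at brain P2, 16 of them among the 18, and Rpa2 and Pola2, on chromosomes 4 and 19, were the ones lost.

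The genes rose again between brain P2 and P3. At P3, 15 genes were higher than at P2 and 0 were lower, where 11.0% of all tested genes were called higher, and the median was 0.44 against -0.04 for all tested genes. Ccne2 rose 4.20-fold (2.07 ± 0.24, SE, limma adjusted p = 0.001), Orc1 3.64-fold (adjusted p = 0.0039), Rrm2 3.38-fold (adjusted p = 0.001) and Tk1 2.58-fold (adjusted p = 0.014). The others were E2f8 (2.62-fold), Mcm10, Pola2, Prim1, Pole2, Rfc5, Rpa2, Rpa3, Fen1, Rrm1 and Dut, at 1.61-fold to 2.12-fold for the last 10. Ccne2, Orc1 and Rpa2 lie on chromosome 4, whose median difference from P0 was -0.58 at brain P2 and -0.004 at P3. For chromosome 19, where Pola2 and Fen1 lie, it was -0.32 and -0.14, and for chromosome 12 (Pole2 and Rrm2) -0.19 and 0.03. How much of the rise of each of these genes is a shift of its chromosome was not tested. Mcm2 to Mcm7 differed by -0.40 to 0.50 and Pcna by 0.23, without a call. Both P3 arrays lay above both P2 arrays for 26 of the 43 genes, 60.5% against 29.3% of all tested genes. The calls numbered 4 and 5 without the first or second P2 array, 3 and 8 without the first or second P3 array, and 0 without the 5 arrays with the raised floor; Rrm2, Ccne2 and Orc1 were called in each of the 4 fits with 1 array left out. The comparison uses the same P2 arrays as that with P0, so low P2 values enter both.

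**Figure D3:**
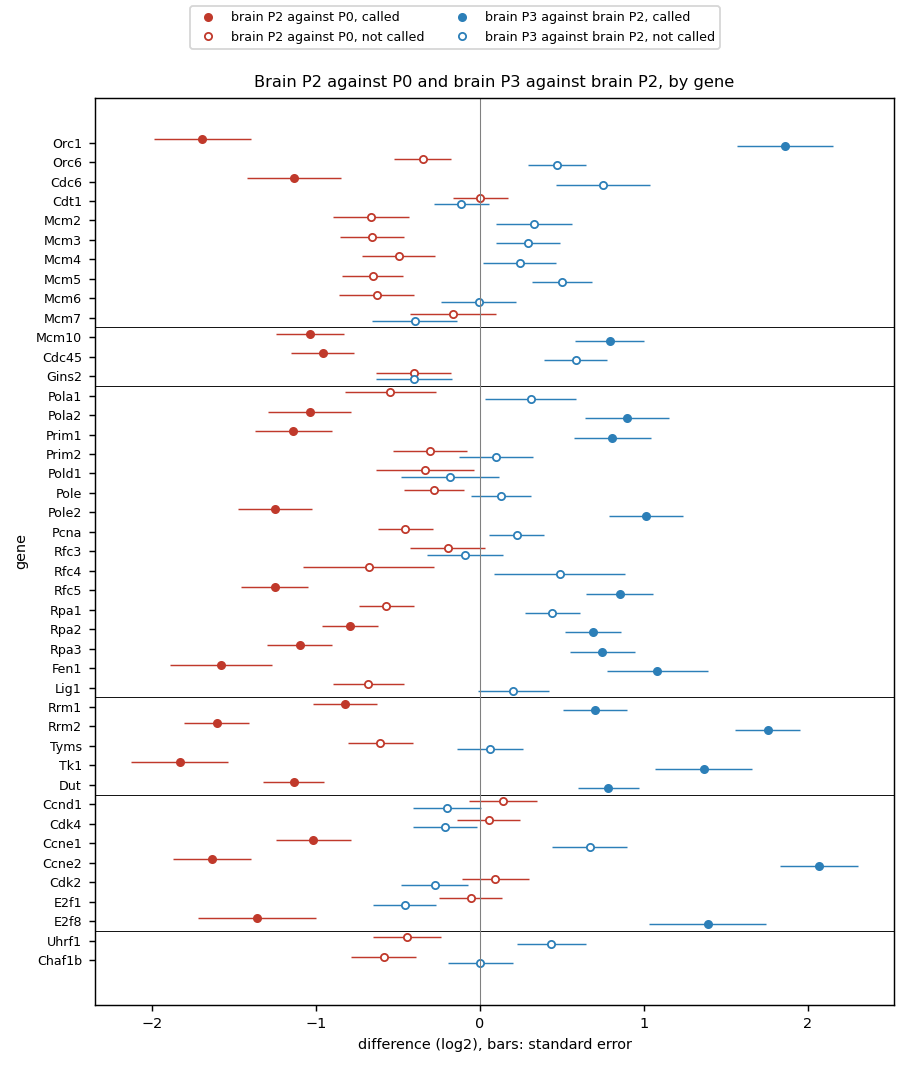
Difference (x axis, log2) of brain P2 from P0 (red) and of brain P3 from brain P2 (blue) for each of the 43 genes (y axis, by role; lines part the roles in the order loading, firing, fork, nucleotide supply, G1 to S regulators, chromatin), with standard errors as bars. Filled points were called, 18 in red and 15 in blue, and all filled red points lie left of 0 and all filled blue points right of it; both comparisons use the same P2 arrays.

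At P3 and P4 no gene differed from P0 by the limma test, with 5 and 15 at an unadjusted p under 0.05. Of all 7300 tested genes, 993 and 1185 were under that value. Calls among all tested genes were also few, 0.658% at P3 and 1.01% at P4. The median stood at -0.24 at P3 and -0.42 at P4, where the median of all tested genes was -0.10 and -0.19. At P4, 42 of the 43 genes (97.7%) were below P0, as were 73.6% of all tested genes. Rfc4, of the clamp loader, had the largest difference, -1.18 ± 0.40 (limma adjusted p = 0.23), with P4 arrays of 7.73 and 8.71 against 9.02 and 9.79 at P0. The second arrays of P3 and P4, which have the raised floor, were lower in the median over the 43 genes than the first, and without them the P3 median was -0.10 and the P4 median -0.23. In a comparison chosen after the data had been seen, 6 genes were higher at P4 than at P2 (6.82% of all tested genes were called higher). They were Orc1, Rpa2, Rrm1, Rrm2, Tk1 and Ccne2. Their number depended on the array left out, and the median over the 43 genes was then 0.12 to 0.44. Orc1, Rpa2 and Ccne2 lie on chromosome 4, whose median difference from P0 was -0.58 at P2 and -0.09 at P4.

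On bone marrow and lung no gene was called against P0 over the 4 passages together, with 1 and 5 at an unadjusted p under 0.05 (limma, n = 4 and 2 arrays; 0.37% and 0.205% of all tested genes were called). The medians were -0.05 and -0.19, against -0.01 and -0.05 over all tested genes. On bone marrow 30 of the 43 genes (69.8%) were below P0, against 52% of all tested genes. On lung 38 of the 43 (88.4%) were below P0, against 59.7%. Lung P3 was the lowest of the lung passages, with 41 of the 43 genes (95.3%) below P0 against 53% of all tested genes. Its median was -0.35 against -0.02. On bone marrow the largest difference was that of Ccne2, at 7.25, 7.74, 7.37 and 8.02 from P1 to P4 against 7.05 and 7.05 at P0, a mean difference of 0.55 ± 0.20 (limma adjusted p = 0.54). All 4 bone marrow arrays were above P0 for this gene. On lung, Ccnd1 measured 11.63, 11.88, 11.95 and 12.06 from P1 to P4, below both P0 arrays, with a mean difference of -0.50 ± 0.18 (limma adjusted p = 0.82). The breast array had 0 calls and 0 genes at an unadjusted p under 0.05 (0.26% of all tested genes were called). Of all 7300 tested genes, 541 were under that value.

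Set against bone marrow and lung at the same passages, brain P1 and P2 had 11 genes lower and 1 higher, in a comparison in which 13.7% and 9.84% of all tested genes were called. The median over the 43 genes was -0.23, against 0.00 for all tested genes. Orc1 was 2.39-fold lower (limma adjusted p = 0.0038), Ccne2 2.38-fold (adjusted p = 0.0014) and Rpa3 2.05-fold (adjusted p = 0.0014), followed by Pola2, Pole2, E2f8, Rpa2, Rrm2, Dut, Rrm1 and Rfc5 at 1.39-fold to 1.90-fold. Orc1, Ccne2 and Rpa2 lie on chromosome 4, whose median difference from P0 was -0.58 at brain P1 and at P2. For chromosome 19 (Pola2) it was -0.29 and -0.32, and for chromosome 12 (Pole2 and Rrm2) -0.22 and -0.19. The higher gene was Ccnd1, by 1.51-fold (0.60 ± 0.15, SE, limma adjusted p = 0.021). It measured 12.68, 12.39, 12.60 and 12.44 on the brain P1 and P2 arrays, 11.71 and 12.51 on bone marrow P1 and P2, and 11.63 and 11.88 on lung P1 and P2, so bone marrow P2 lay within the range of brain. Each bone marrow and lung passage here is 1 array, assumed to vary like the groups with 2. The calls were 7 to 9 with 1 brain array left out, and 1 (Ccne2) without the 5 arrays with the raised floor, which include lung P1.

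**Figure D4:**
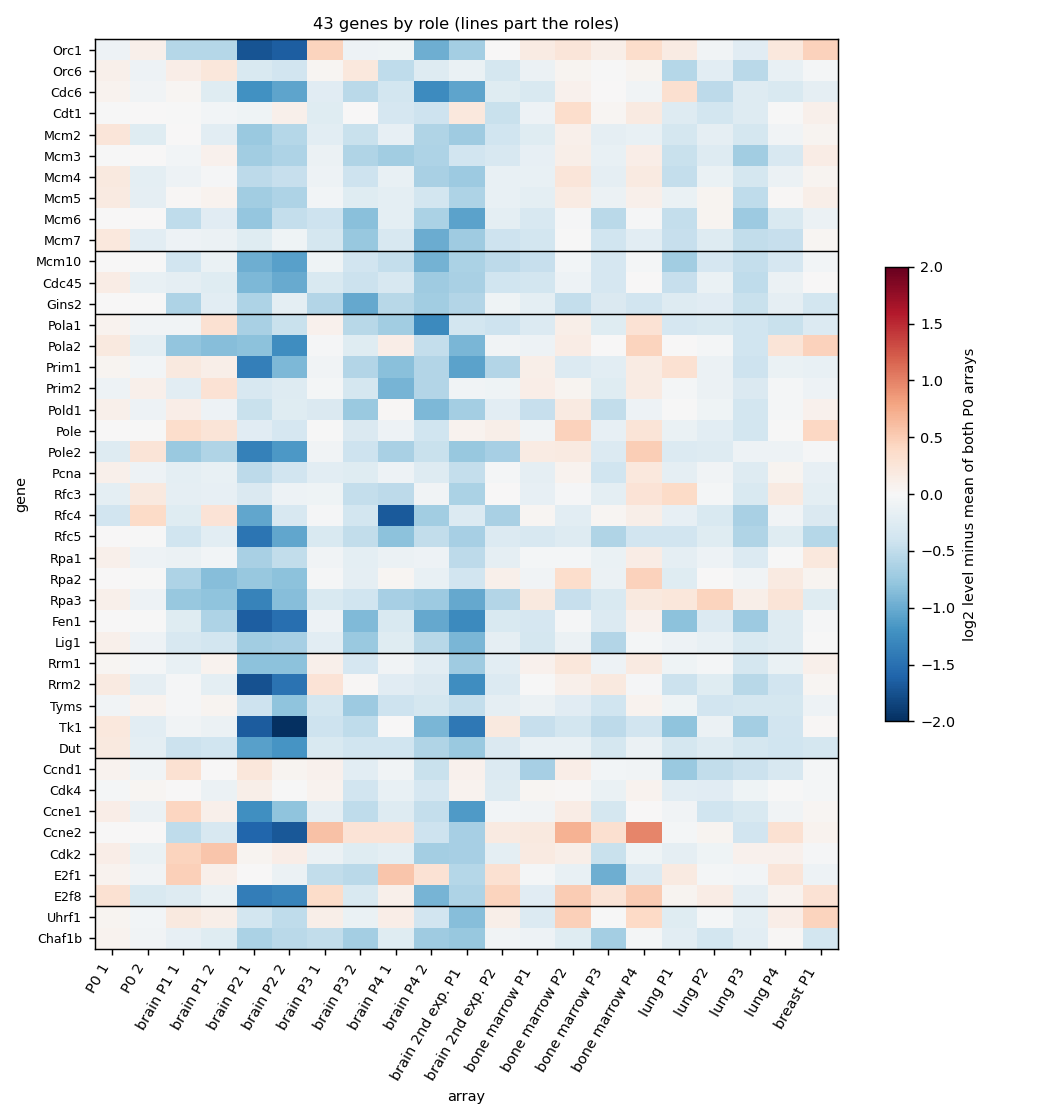
Difference of each tested gene (y axis, 43 genes by role) from the mean of both P0 arrays on each of the 21 arrays (x axis), as colour from -2 (blue) to 2 (red) on the log2 scale. The lowest medians are those of the 2 brain P2 arrays (-0.70 and -0.62) and P1 of the second brain experiment (-0.66); Ccnd1, Cdk4 and Cdt1 stay pale in these columns.

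In the second brain experiment the low array was that of P1. Its median difference from P0 was -0.66, with 39 of 43 genes (90.7%) below the P0 mean against 50% of all tested genes, and that of P2 was -0.19. Rrm2 measured 9.36 at P1 and 10.33 at P2, Tk1 8.51 and 10.14, Fen1 6.73 and 7.71, Cdc6 6.39 and 7.20, Prim1 7.36 and 7.84, Orc1 6.26 and 6.94, Ccne2 6.39 and 7.23, E2f8 8.38 and 9.44, and Ccnd1 12.46 and 12.10. The P1 array lay below both P0 arrays and the P2 array for 35 of the 43 genes, 81.4% against 28.5% of all tested genes. Over both passages together 0 genes were called against P0 by limma (0.315% of all tested genes were called), and the median was -0.43. An unadjusted p under 0.05 was found for 14 of the 43 genes and for 1017 of all 7300 tested genes. In single comparisons chosen after the data had been seen, Rrm2 was the 1 gene called at P1 (-1.25 ± 0.24, limma adjusted p = 0.048). Of all tested genes, 0.603% were called lower there. At P2, 0 were called (0.0% of all tested genes were called). An unadjusted p under 0.05 was found for 27 of the 43 genes at P1 and 2 at P2. Among all 7300 tested genes it was found for 1280 at P1 and 531 at P2. The Rrm2 call was lost without either P0 array. Mcm6 was at 8.50 on this P1 array, 1.07 below P0, and Uhrf1 at 8.16, both with larger differences from P0 there than at brain P2 of the first experiment; the difference between the experiments at unlike passages was not tested.

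At the same passage the experiments differed in opposite directions. At P1, 4 genes were lower in the second experiment than in the first, Ccne1 (2.63-fold), Prim1 (2.33-fold), Cdk2 (2.22-fold) and Rrm2 (2.21-fold), with limma adjusted p of 0.023 to 0.04 (2.4% of all tested genes were called lower). At P2, 6 genes were higher, Tk1 (4.08-fold), Ccne2 (3.53-fold), E2f8 (3.48-fold), Orc1 (3.24-fold), Rrm2 (2.51-fold) and Rpa2 (1.84-fold), with limma adjusted p of 0.0096 to 0.045 (4.51% of all tested genes were called higher). Ccne2, Orc1 and Rpa2 lie on chromosome 4, whose median difference from P0 was -0.58 at P2 of the first experiment. The dimmer probe set of Tk1 differed by 1.43, less than the 2.03 of the brighter one. Each second experiment group is 1 array, and both comparisons were chosen after the medians of the arrays had been seen.

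Genes next to these in the cell cycle were read from lists by function. The background at brain P2 is 8.37% of all tested genes called lower and a median of -0.05. Of 34 other tested replication factors, 12 fell at brain P2 and 0 rose, with a median of -0.51. Asf1b, a histone chaperone, was lower by 1.42 and Top2a, the topoisomerase of dividing cells, by 1.02. Of 22 other G1 to S regulators, 7 fell and 0 rose, with a median of -0.51. Cdkn2c, an inhibitor of CDK4 and CDK6, was at -2.30 from P0, and Ccna2, the S phase cyclin, was 2.82-fold lower. Cdkn2c lies on chromosome 4 and Ccna2 on chromosome 3, whose median differences at brain P2 were -0.58 and -0.33. Of 46 mitosis and spindle genes, 32 fell, with a median of -1.06, and Mki67 was lower by 1.47 and Aurkb by 1.52. On the P1 array of the second experiment, the mitosis and spindle genes had a median of -0.33 and 0 calls. An unadjusted p under 0.05 (limma) was found for 8 of these 46 genes and for 1280 of all 7300 tested genes. The median of the 43 replication and G1 to S genes was -0.66 on this array.

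The 4 genes below the filter were not tested. Gins1, of the GINS complex, measured 6.98 and 7.16 at P0 and 6.40 and 6.36 at brain P2, and Gmnn, the inhibitor of CDT1, 5.48 and 5.38 at P0 and 4.79 and 5.09 at brain P2. Gins3 was at 6.87 and 6.82 at P0 and 6.39 and 6.59 at brain P2, and Ccnd2 at 5.21 and 5.29 against 5.45 and 5.06. Gins1, Gins3 and Gmnn were below both P0 arrays at brain P2, and Ccnd2 overlapped them.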

How the data were processed

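Affymetrix Mouse Gene 1.0 ST arrays were hybridised with RNA of 21 cultures, placed in 16 groups by their labels. The deposited log2 values were made by the authors with RMA in Expression Console (background correction, quantile normalization between arrays, median polish), and quantile normalization sets all arrays to a like distribution, so a shift common to all genes would not be seen. Number of arrays limits the precision. Of 34760 probe sets, 21640 had 1 gene symbol, 1321 several and 11799 none. The study removed dim probe sets by negative control probes, not used here; the number the study kept was taken here by the largest group mean (at least 7.33). limma 3.58.1 in R 4.3.3 fitted 1 mean per group to all arrays with empirical Bayes variances and 5 residual degrees of freedom; lone arrays are assumed to vary like groups of 2. Of 25 comparisons, 10 were planned and 15 were chosen later, with the data in view. The members and lists were chosen with earlier results of these data known. Called members with the lowest adjusted p were named, with every array's value for up to 12 genes, and members with a named role whether called or not. Alternatives were a filter of 7000 probe sets or none, cyclic loess or equal medians of the arrays, limma's robust fit with a variance trend, averaged probe sets of a gene, chromosome medians subtracted, a replicate block and leaving out each array; leaving out the 5 arrays with the highest floor was chosen after seeing the data. Motifs and figures used Python 3.11.15 and matplotlib 3.10.9. The fit was tested on simulated data.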

Additional observations from a re-analysis of the deposited data

Results flagged for a closer look

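The difference between tissues at early passages was flagged because 12 genes were called between brain P1 and P2 and bone marrow and lung P1 and P2. The difference between the first and second brain experiment was flagged at P1, with 4 genes called, and at P2, with 6 genes called. These were 0 at P1 when either brain P1 array was left out, and 2 at P2 when either brain P2 array was left out. No group had more than 2 arrays, so single arrays were not tested as outliers.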

How the results depend on the processing

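Counts of calls changed with the settings. With 1 array left out, the median over the genes was -0.70 to -0.62 at brain P2 against P0, but -0.25 to -0.05 at P1, -0.41 to -0.10 at P3 and -0.58 to -0.23 at P4, and 0.32 to 0.56 for P3 and 0.12 to 0.44 for P4 against P2. With no filter, calls were 1 at brain P2 (18 in the report), 0 at brain P1 (1), 0 for P2 against P1 (5), 3 for P3 against P2 (15) and 5 for brain against bone marrow and lung at P1 and P2 (12), while 34760 probe sets were adjusted over. Without the 5 arrays with the highest floor they were 0, 0, 0, 0 and 1 in the same order, with fewer arrays and 1 residual degree of freedom. At brain P1 the count was 0 with a variance trend and robust estimation, 0 with chromosome medians subtracted and 2 with a filter of 7000 probe sets. With 1 array left out, calls ranged from 3 to 8 at brain P2 against P0, 0 to 0 at brain P1, 0 to 0 for P2 against P1, 3 to 8 for P3 against P2 and 7 to 9 for brain against bone marrow and lung; the fewest at brain P2 were without the first P0 array and the fewest for P3 against P2 without the first P3 array. Equal array medians, cyclic loess and the mean of probe sets left the 10 planned counts within 1.5 times. No called difference changed sign under any alternative run.

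With replicate number as a block, calls were 2 at brain P1, 20 at brain P2 and 10 for brain against bone marrow and lung, and it changed no other planned count by over 1.5 times. Same-numbered arrays of 10 pairs of groups had correlations of 0.009 to 0.357 between their deviations, over 0.1 in 7. The main fit did not use the replicate number. Whether the second brain arrays, which share the raised floor, form a batch was not tested.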
